A study of Mus musculus with 15 samples.

Results

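The 9 genes described here encode enzymes that build cholesterol from acetyl-CoA: Hmgcs1, Mvk, Mvd, Idi1, Fdps, Fdft1, Sqle, Lss and Cyp51. They are 9 of the 23420 gene rows in the deposited expression table, and all 9 were found by symbol. They were chosen by their measured transcript levels, because those levels were lower in UV2 tumors under anti-PD-1 than in UV2 tumors under isotype antibody. That difference is therefore a description of how the genes were picked, and no p-value is given for it.

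RNA was sequenced from whole melanoma grafts grown on female C57BL/6 mice that were 8 weeks old when 1000000 cells were placed in each flank. Left-flank grafts were treated on days 8, 10 and 12, and the harvest was on day 13. There were 5 groups of 3 libraries: UV2 tumors (line D3UV2) under anti-PD-1, UV2 tumors under isotype antibody, parental tumors (line D4M.3A.3) under triple therapy, parental tumors under anti-PD-1, and parental tumors under isotype antibody. UV2 is a melanoma line with putative neoantigens induced by UVB light, anti-PD-1 is an antibody against a checkpoint receptor of T cells, and isotype antibody is its control. The labels disagree on triple therapy: all of them give imiquimod, a cream that activates a Toll-like receptor, and ablative fractional photothermolysis, a laser treatment of the skin, but one label adds anti-PD-1 and another adds isotype antibody. The labels name no alleles of either line and leave unsaid whether the libraries within a group stem from different animals, so p-values measure only the spread between these libraries.

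Sterol synthesis begins with acetyl-CoA, which is turned into mevalonate, then into the building block isopentenyl diphosphate, then into farnesyl diphosphate and squalene, and last into ring-shaped sterols. Genes of this pathway share a regulator, the transcription factor SREBP-2 (gene Srebf2), which is held in the endoplasmic reticulum by Insig proteins when sterols are plentiful and moves to the nucleus when they are scarce. Its binding sites, the sterol regulatory elements, usually lie beside sites for the factors NF-Y and Sp1, and oxysterols act in the opposite direction through the receptor LXR, which turns on genes of sterol export.

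Promoters from 250 bases before to 50 bases after the start site were read from the RefSeq table of build GRCm38.p6, which held 6 of the 9 genes (Hmgcs1, Mvk, Mvd, Idi1, Lss and Cyp51). Of these, 4 are shown because they span the range of differences reported here: Idi1 had the largest difference in UV2 tumors, Mvk the smallest, Hmgcs1 is the first enzyme of the group and Cyp51 the last. Capitals mark matches, on either strand, to TCACNCCAC (a sterol regulatory element core) and to CCAAT (the NF-Y box, read as ATTGG on the other strand). The regions are chr13:119690101-119690400 on the plus strand for Hmgcs1, chr5:114444019-114444318 on the plus strand for Mvk, chr13:8885356-8885655 on the plus strand for Idi1 and chr5:4104648-4104947 on the minus strand for Cyp51, each written 5′ to 3′ along the gene.
Hmgcs1: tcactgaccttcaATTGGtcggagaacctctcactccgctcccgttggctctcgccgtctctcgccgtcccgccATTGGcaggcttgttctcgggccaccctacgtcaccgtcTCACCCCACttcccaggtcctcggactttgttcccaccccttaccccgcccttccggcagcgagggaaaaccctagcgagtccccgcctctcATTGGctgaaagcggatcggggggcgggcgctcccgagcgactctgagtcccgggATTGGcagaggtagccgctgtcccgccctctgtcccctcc
Mvk: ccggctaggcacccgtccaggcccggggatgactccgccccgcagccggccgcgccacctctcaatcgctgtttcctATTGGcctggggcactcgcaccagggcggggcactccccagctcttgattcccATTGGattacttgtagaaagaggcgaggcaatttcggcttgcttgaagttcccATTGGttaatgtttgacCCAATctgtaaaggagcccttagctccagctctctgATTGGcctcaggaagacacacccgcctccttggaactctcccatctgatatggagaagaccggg
Idi1: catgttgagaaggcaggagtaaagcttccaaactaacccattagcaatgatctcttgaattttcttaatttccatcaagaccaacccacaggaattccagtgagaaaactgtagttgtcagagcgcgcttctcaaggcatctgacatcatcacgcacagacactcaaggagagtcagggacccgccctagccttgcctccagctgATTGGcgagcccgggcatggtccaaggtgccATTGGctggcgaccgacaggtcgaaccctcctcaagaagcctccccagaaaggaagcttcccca
Cyp51: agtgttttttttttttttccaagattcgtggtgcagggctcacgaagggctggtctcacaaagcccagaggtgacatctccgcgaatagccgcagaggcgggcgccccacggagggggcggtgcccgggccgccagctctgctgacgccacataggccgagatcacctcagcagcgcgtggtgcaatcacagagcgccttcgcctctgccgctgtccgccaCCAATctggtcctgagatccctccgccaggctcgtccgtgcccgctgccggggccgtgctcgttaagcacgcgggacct

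The sterol element core was found in 1 of the 6 promoters, that of Hmgcs1, starting 137 bases before the start site. Of all 32851 promoters in the table, 1.24% held it. The NF-Y box was in 6 of 6 promoters, against 37.4% of all promoters, with 4 matches in Hmgcs1, 5 in Mvk, 2 each in Mvd and Idi1 and 1 each in Lss and Cyp51. The Sp1 box GGGCGG, searched on both strands and not capitalised, was in 6 of 6 promoters, against 35.7% of all promoters and 60.7% of the promoters of genes tested here. No searched motif overlaps another, and a match is a description of letters, not of binding.

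Levels are given in TPM, a unit scaled for gene length whose total is the same in each library, so the number of reads is unknown. Each library had 12239 to 13993 genes at 1 TPM or more. One library stood apart by its skin genes: summed TPM of 7 keratinocyte markers was 17209 in parental triple therapy replicate 1, against 123 and 1235 in the other triple therapy libraries and 2.31 to 322 in the remaining 12. Of 7 melanocyte markers, Tyrp1 and Dct were listed at 0 in all isotype libraries of both lines, Sox10 did not exceed 0.25 TPM outside triple therapy, and Mitf ranged from 5.28 to 14.15 TPM over all 15 libraries.

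The enzymes of the mevalonate steps were at their lowest in UV2 tumors under anti-PD-1. Hmgcs1, the cytosolic HMG-CoA synthase that joins acetyl-CoA to acetoacetyl-CoA, had 32.6, 35.45 and 31.1 TPM in UV2 anti-PD-1 libraries, against 133, 84.4 and 86.7 TPM in UV2 isotype libraries. In parental tumors it had 93.85, 135 and 95.3 TPM under triple therapy, 112, 131 and 119 TPM under anti-PD-1 and 139, 153 and 81.8 TPM under isotype antibody. Its 3 UV2 anti-PD-1 libraries lay within a few TPM of each other and below all other 12 libraries. On the log2(TPM + 1) scale its UV2 difference (anti-PD-1 minus isotype) was -1.56 (SE 0.24), or 3.07-fold lower by group means.

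Mvk, mevalonate kinase, had 18.0, 19.4 and 20.1 TPM in UV2 anti-PD-1 libraries, against 57.2, 35.0 and 32.1 TPM in UV2 isotype libraries. Its parental values were 36.6, 35.7 and 23.9 TPM under triple therapy, 25.7, 41.9 and 24.7 TPM under anti-PD-1 and 32.0, 36.9 and 33.6 TPM under isotype antibody. This gene had the narrowest margin of the 9: the highest UV2 anti-PD-1 library was at 20.1 TPM and the lowest of the other 12 at 23.9 TPM. The UV2 difference was -1.03 (SE 0.25), the smallest of the 9, and UV2 isotype replicate 1 was the highest library of all 15.

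Mvd, the decarboxylase that makes isopentenyl diphosphate, had 9.72, 14.97 and 10.9 TPM in UV2 anti-PD-1 libraries, against 35.4, 29.6 and 20.8 TPM in UV2 isotype libraries. In parental tumors it had 33.3, 26.6 and 23.1 TPM under triple therapy, 28.8, 38.4 and 25.9 TPM under anti-PD-1 and 30.7, 36.2 and 25.01 TPM under isotype antibody. The 4 groups other than UV2 anti-PD-1 overlapped one another. Its UV2 difference came to -1.19 (SE 0.24).

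The isoprenoid enzymes showed the widest UV2 differences. Idi1, the isomerase that interconverts the isopentenyl building blocks, had 17.1, 20.4 and 18.5 TPM in UV2 anti-PD-1 libraries, against 79.5, 61.25 and 52.9 TPM in UV2 isotype libraries. Its parental values were 55.5, 95.9 and 62.8 TPM under triple therapy, 74.95, 105 and 79.6 TPM under anti-PD-1 and 126, 109 and 83.0 TPM under isotype antibody. The gap to the other 12 libraries was wide, with 20.4 TPM as the highest UV2 anti-PD-1 library and 52.9 TPM as the lowest of the rest. With -1.72 (SE 0.23), or 3.46-fold lower by group means, it had the largest UV2 difference of the 9.

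Fdps, farnesyl diphosphate synthase, stands where the pathway divides toward sterols, ubiquinone, dolichol and protein prenylation, and it had the highest level of the 9 in every group. It had 70.5, 105 and 99.6 TPM in UV2 anti-PD-1 libraries, against 373, 285 and 212 TPM in UV2 isotype libraries. Parental libraries had 152.5, 376 and 246 TPM under triple therapy, 275, 456 and 305 TPM under anti-PD-1 and 444, 396 and 329 TPM under isotype antibody. Triple therapy replicate 1, the library with the keratinocyte transcripts, was the lowest of the 12 libraries outside UV2 anti-PD-1. In UV2 tumors the difference was -1.63 (SE 0.31).

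The 4 enzymes from squalene synthase onward shared one order of group means, from UV2 anti-PD-1 as the lowest through UV2 isotype, triple therapy and parental anti-PD-1 to parental isotype as the highest, though neighbours in the upper part of that order overlapped. Hmgcs1 and Idi1 had the same order, so it is not particular to these 4. Fdft1, squalene synthase, which commits farnesyl diphosphate to sterols, had 20.04, 24.45 and 17.9 TPM in UV2 anti-PD-1 libraries, against 58.7, 42.5 and 46.3 TPM in UV2 isotype libraries. In parental tumors it had 35.5, 68.5 and 45.8 TPM under triple therapy, 59.8, 77.0 and 69.2 TPM under anti-PD-1 and 79.8, 74.2 and 52.9 TPM under isotype antibody. The triple therapy libraries spread widest, with a coefficient of variation of 33.8%. Between the UV2 groups Fdft1 differed by -1.20 (SE 0.23).

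Sqle, squalene epoxidase, a rate-limiting oxygen-using step, had 21.0, 23.3 and 16.3 TPM in UV2 anti-PD-1 libraries, against 81.2, 50.9 and 59.8 TPM in UV2 isotype libraries. Parental values were 59.3, 87.0 and 64.4 TPM under triple therapy, 81.6, 88.7 and 85.1 TPM under anti-PD-1 and 105, 98.7 and 68.2 TPM under isotype antibody. The parental anti-PD-1 libraries were the most even of any group and gene, with a coefficient of variation of 4.22%. Its UV2 difference was -1.60 (SE 0.21).

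Lss, lanosterol synthase, which closes the sterol rings, had 5.76, 5.14 and 4.63 TPM in UV2 anti-PD-1 libraries, against 23.35, 9.89 and 18.3 TPM in UV2 isotype libraries. Parental libraries had 23.1, 31.1 and 18.35 TPM under triple therapy, 25.5, 28.3 and 24.85 TPM under anti-PD-1 and 32.4, 37.6 and 14.5 TPM under isotype antibody. It was the lowest of the 9 enzymes in every group, and 1 library of each isotype group was well under the other two. The UV2 difference was -1.48 (SE 0.34), with the largest error of the 9.

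Cyp51, the lanosterol demethylase, had 13.4, 17.9 and 13.4 TPM in UV2 anti-PD-1 libraries, against 45.4, 40.6 and 35.3 TPM in UV2 isotype libraries. Its parental values were 40.0, 62.8 and 47.3 TPM under triple therapy, 58.6, 70.0 and 59.8 TPM under anti-PD-1 and 82.4, 71.7 and 52.1 TPM under isotype antibody. The UV2 difference was -1.39 (SE 0.20), and all UV2 isotype libraries were below all parental isotype libraries.

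**Figure D1:**
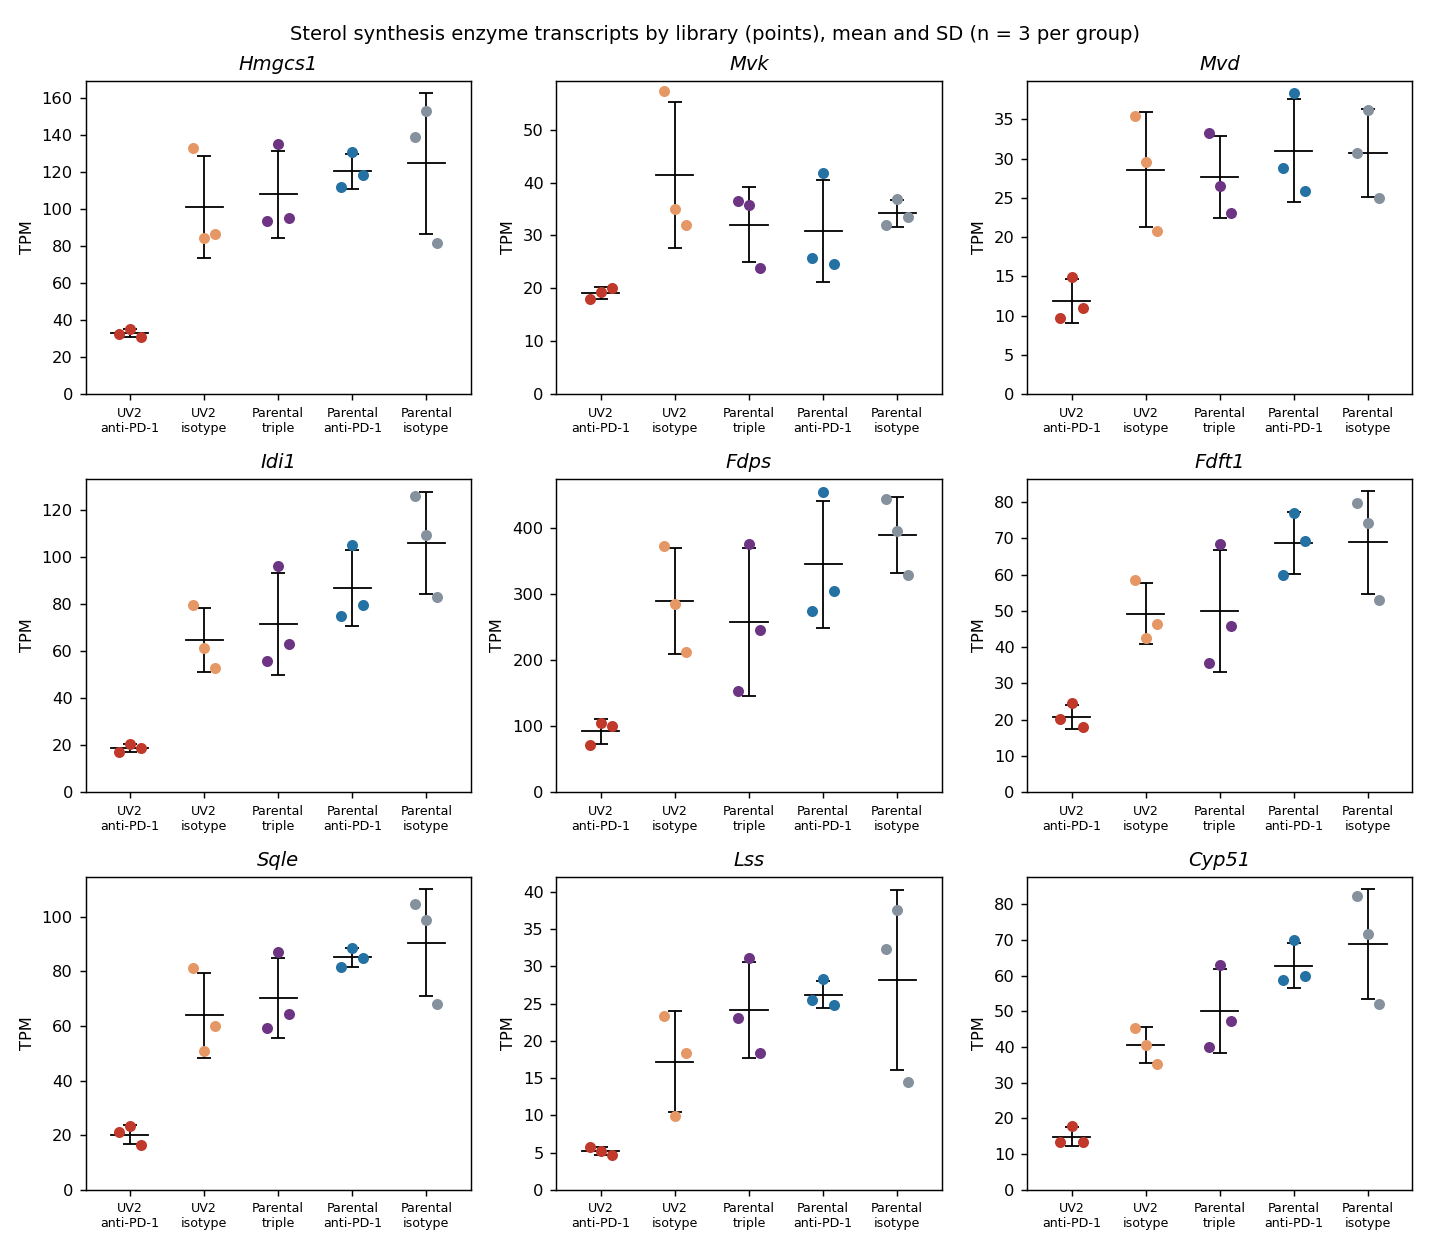
TPM of each of the 9 enzymes (vertical axis, from 0) in the 15 libraries, by group; points are libraries, the long bar is the group mean and the error bar 1 SD (n = 3). The UV2 anti-PD-1 points lie below all other 12 points in each panel, with the narrowest gap for Mvk, 20.1 against 23.9 TPM.

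Added together, the 9 enzymes reached 236 ± 29.3 TPM in UV2 anti-PD-1 tumors, 697 ± 169 TPM in UV2 isotype tumors, 692 ± 202 TPM under parental triple therapy, 857 ± 157 TPM under parental anti-PD-1 and 942 ± 177 TPM under parental isotype antibody (SD, n = 3 each). In order of their sums, neighbours among the 4 higher groups differ by less than the larger of their SDs, and UV2 anti-PD-1 is separated from the next by more than the SD of either. In bulk tumors, fewer cells of a type and less RNA per cell cannot be told apart. Fdps made up 33.9% to 42.9% of the sum in UV2 anti-PD-1 libraries, against 37.5% to 44.5% in UV2 isotype libraries, with overlap. Mvk made up a larger part of the sum in UV2 anti-PD-1 libraries, 7.27% to 8.65%, against 5.48% to 6.45% in UV2 isotype libraries, and Idi1 a smaller one, 7.66% to 8.22% against 8.97% to 9.59% in the same groups, both without overlap. UV2 anti-PD-1 was the lowest group for 9 of 9 enzymes, and parental isotype was the highest for 7 of 9, the exceptions being Mvk (UV2 isotype) and Mvd (parental anti-PD-1).

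In the comparison that chose them, UV2 anti-PD-1 against UV2 isotype, the 9 differences ran from -1.72 (Idi1) to -1.03 (Mvk) with a median of -1.48, beside a median of -0.11 over all 13592 genes tested. These genes had at least 1 TPM in at least 3 libraries, and all 9 enzymes passed. From the lowest difference upward the enzymes held places 13 (Idi1), 16 (Fdps), 20 (Sqle), 24 (Hmgcs1), 30 (Lss), 42 (Cyp51), 82 (Fdft1), 89 (Mvd) and 172 (Mvk). All 9 had non-overlapping groups with UV2 anti-PD-1 lower, which was true of 7.28% of genes, and all 9 were below the other 12 libraries, which was true of 190 genes or 1.4%. With limma and Benjamini-Hochberg adjustment over all genes, 0.0147% of genes were called lower (adjusted p under 0.05), namely Idi1 and Sqle and no other gene. Since the comparison chose the enzymes, nothing is read from these counts. Leaving out any 1 of the 6 UV2 libraries removed both calls, except that Idi1 remained without UV2 isotype replicate 3. The medians without 1 library ran from -1.63 to -1.30.

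The parental tumors offer a comparison in libraries that the choice did not use. There, anti-PD-1 against isotype antibody gave differences from -0.28 (Idi1) to 0.01 (Mvd) with a median of -0.06, beside 0.07 over all genes. None of the 9 was called (limma, adjusted p = 1 for each), and 0% of the 13592 genes were called, with 83 genes at an unadjusted p under 0.05. The 95% intervals of the 9 lay between -0.87 and 0.74, so the data allow a difference of either sign. The 3 enzymes just above 0, Mvd, Fdft1 and Lss, were positive on TPM and negative after median-of-ratios or quantile scaling. The parental median ran from -0.28 without isotype replicate 3 to 0.03 without isotype replicate 1.

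Triple therapy gave a lower parental mean than isotype antibody for each enzyme, where 35.8% of all genes were lower. None of these differences passed the test. The groups were non-overlapping for 0 of 9, against 461 of 13592 genes with triple therapy lower. Against isotype antibody, the differences ran from -0.68 (Fdps, SE 0.31) to -0.11 (Mvk, SE 0.25) with a median of -0.36, beside 0.12 over all genes. The 9 adjusted p-values (limma) ran from 0.350 for Idi1 to 0.881 for Lss, so 0 of 9 were called, where 0.0221% of genes were called (Krt6a, Krt6b and Krt16, epidermal keratins, all higher, named after their values were seen). Idi1 was at -0.58 with a 95% interval of -1.07 to -0.09, Fdps had an interval of -1.35 to -0.00, and Cyp51 was at -0.45 with an interval of -0.89 to -0.01. Without triple therapy replicate 1, the keratinocyte-rich library, the median was -0.27, and without isotype replicate 3 it was -0.55, with 0 of 9 called in both. Without triple therapy replicate 2, 257 genes were called, again with 0 of the 9. Leaving out triple therapy replicate 3 left 7 of 9 differences negative.

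Against parental anti-PD-1, triple therapy gave differences from -0.50 (Fdft1) to 0.07 (Mvk), with 8 of 9 negative and a median of -0.29, beside 0.04 over all genes. Adjusted p-values (limma) ran from 0.492 to 0.981, 0 of 9 enzymes were called, and 0% of all genes were called, with 1411 genes at an unadjusted p under 0.05. The median was -0.15 without triple therapy replicate 1, and without replicate 2 there were 195 genes called, 0 of them among the 9. Parental triple therapy replicate 1 had the lowest sum of the 9 parental libraries, 530 TPM, and replicate 2 had 919 TPM, within the range of the parental anti-PD-1 group.

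**Figure D2:**
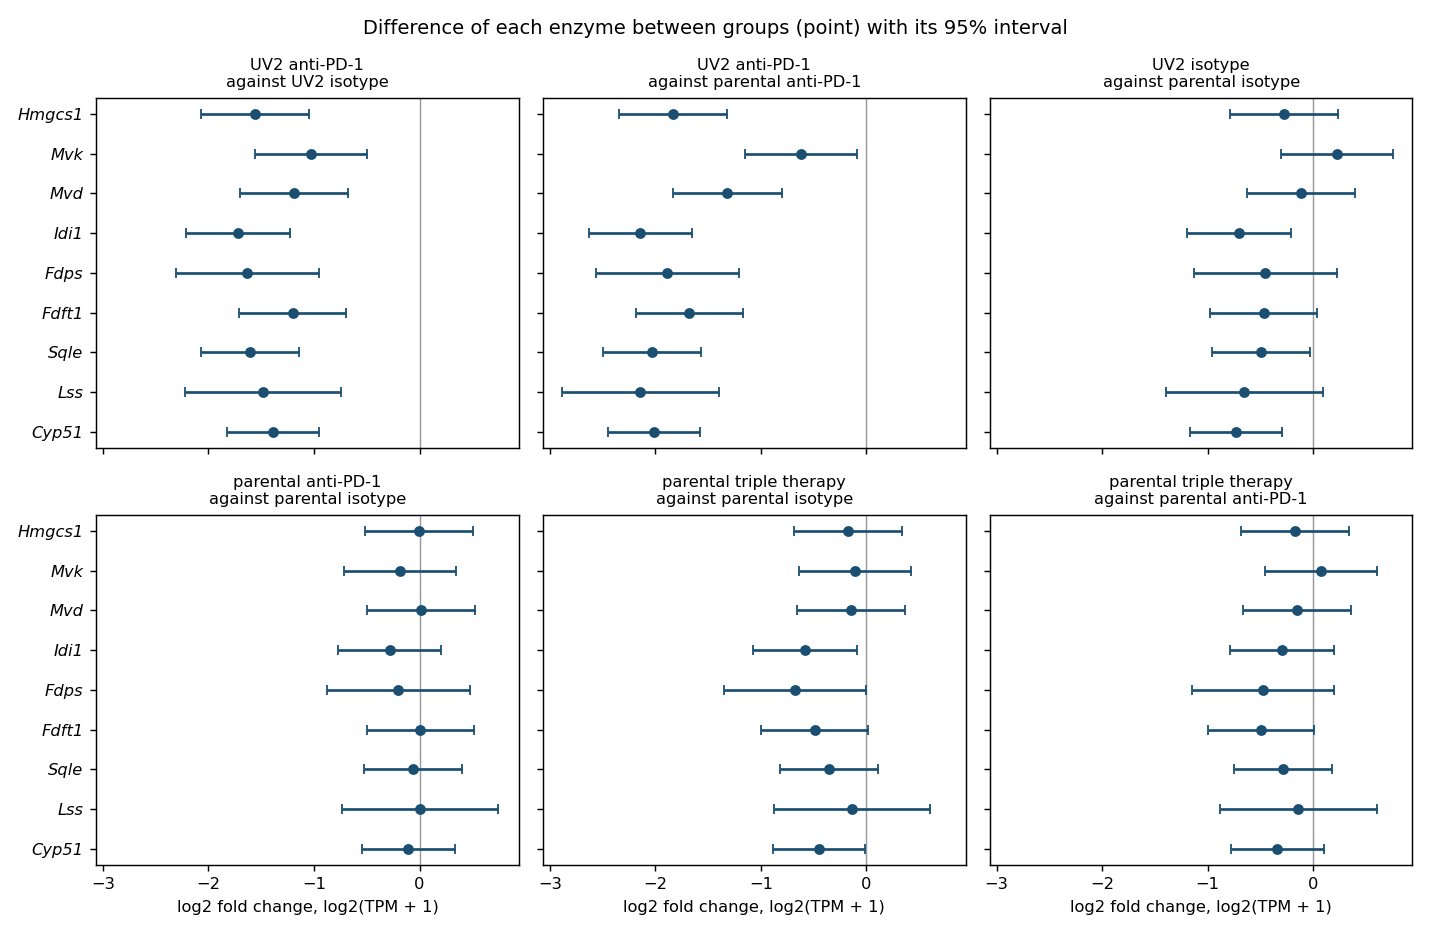
Difference of each enzyme on the log2(TPM + 1) scale (horizontal axis) in the 6 comparisons of groups, with points for the estimate and bars for its 95% interval from the fit over 15 libraries. The comparisons with UV2 anti-PD-1 run from -2.14 to -0.62, and the 3 parental ones from -0.68 to 0.07.

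Between the lines, UV2 isotype tumors had lower values than parental isotype tumors for 8 of 9 enzymes, from -0.73 (Cyp51) to 0.23 (Mvk) with a median of -0.47, beside -0.04 over all genes. Idi1 and Cyp51 had non-overlapping groups, which was true of 9.15% of genes in that direction, 0 of 9 did with UV2 isotype higher, which was true of 10.4%, and 0 of 9 were called lower, against 0.39% of genes. Without UV2 isotype replicate 1, its highest library, Mvk was at -0.02. Without parental isotype replicate 3 Cyp51 was called lower, as 1 of 109 genes of 13592 called lower, in place of 53 with all libraries. Under anti-PD-1, UV2 tumors differed from parental tumors by -2.14 (Idi1 and Lss) to -0.62 (Mvk), with a median of -1.89 beside -0.21 over all genes. In that comparison 17.1% of genes were called lower and 9.31% higher, and 34.3% had non-overlapping groups with UV2 lower. The enzymes were called lower in 8 of 9, all but Mvk, and 9 of 9 were non-overlapping. These counts rest on the UV2 libraries that chose the enzymes and are given as a description. They depend on single libraries: without parental anti-PD-1 replicate 3, or without UV2 anti-PD-1 replicate 3, only 9 genes of 13592 were called, among them Hmgcs1, Idi1, Sqle and Cyp51.

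The anti-PD-1 difference in UV2 tumors minus that in parental tumors was -1.56 (SE 0.34) for Hmgcs1, -1.54 (SE 0.30) for Sqle, -1.49 (SE 0.48) for Lss, -1.44 (SE 0.32) for Idi1 and -1.43 (SE 0.44) for Fdps. It was -1.28 (SE 0.29) for Cyp51, -1.21 (SE 0.33) for Fdft1, -1.20 (SE 0.34) for Mvd and -0.84 (SE 0.35) for Mvk. It is given without a p-value because the UV2 part of it chose the genes. Over all 13592 genes, limma called 0 genes for this difference, with 404 at an unadjusted p under 0.05.

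The enzymes moved together from library to library. Over 15 libraries the 36 pairs had Pearson correlations of log2(TPM + 1) between 0.65 (Mvk and Cyp51) and 0.99 (Idi1 and Cyp51), with a median of 0.93. With group means removed, the range was 0.31 (Mvd and Fdft1) to 0.93 (Idi1 and Cyp51) and the median 0.64. In the 9 parental libraries alone, with group means removed, the median was 0.74, from 0.08 (Mvd and Fdps) to 0.97 (Sqle and Cyp51). With group means removed over 15 libraries, Mvk and Mvd had a correlation of 0.75. Mvk paired less well with the enzymes from squalene synthase onward, Fdft1 (0.35), Sqle (0.39), Lss (0.44) and Cyp51 (0.35). All values of a library share its cell mixture and its TPM scaling, so these correlations are descriptions. The enzymes were chosen for low levels in UV2 anti-PD-1 tumors, so high correlations over all 15 libraries follow in part from the choice. Correlations of other gene pairs are not given for comparison.

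**Figure D3:**
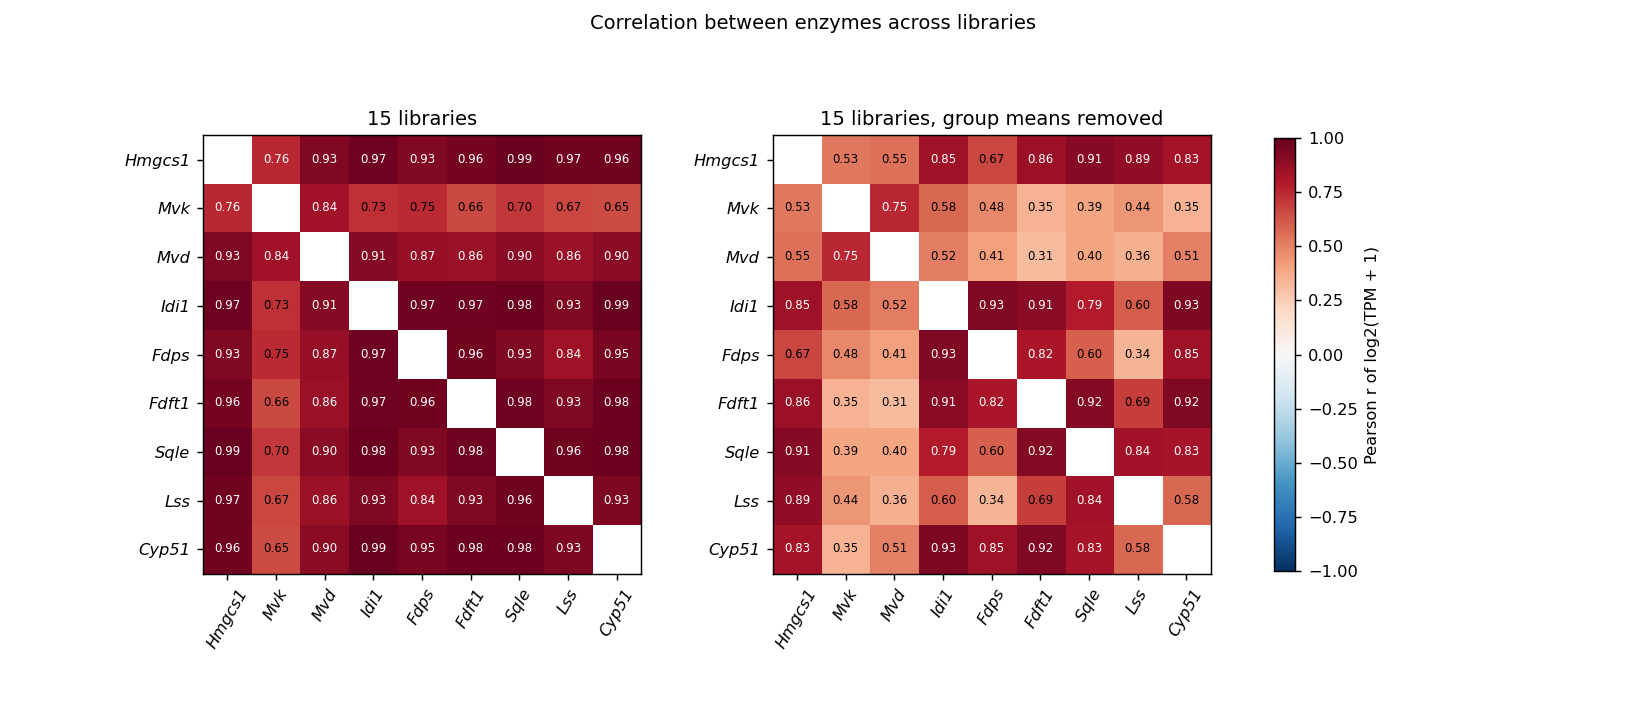
Pearson correlation of log2(TPM + 1) for each pair of the 9 enzymes, over 15 libraries (left) and after removing group means (right); colour runs from -1 to 1. The lowest pair on the left is Mvk with Cyp51 at 0.65, and the lowest on the right is Mvd with Fdft1 at 0.31.

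Among 10199 genes with a mean of at least 5 TPM, the pattern most like the mean of the 9 enzymes over 15 libraries was that of Acat2, with a Pearson correlation of 0.98. Also among the closest were Tecr (0.97), Sc4mol (0.95; the older symbol of Msmo1), Sc5d (0.94), Insig1 (0.93), Fam108c (0.93), Nsdhl (0.92), Aacs (0.92) and Maoa (0.91). In the 9 parental libraries Tecr kept 0.98, Nsdhl 0.95 and Acat2 0.93, whereas Fam108c had 0.58. Tecr averaged 146 ± 7.89 TPM in UV2 anti-PD-1 tumors and 210 ± 39.6 TPM in UV2 isotype tumors, closer together, as a ratio, than the UV2 group means of any of the 9 enzymes. The most opposite patterns were those of Lime1 (-0.95), Ubl3 (-0.92), Rtfdc1 (-0.91), Arrdc1 (-0.91) and Plekho1 (-0.91).

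The other 12 enzymes of the pathway were not chosen by the rule. Their values come from the same libraries, though, and their list was drawn up with earlier results of these data known. Counts and p-values for them and for the lists that follow are therefore given as a description wherever they use UV2 libraries. In UV2 tumors 11 of 12 were lower under anti-PD-1, where 62.3% of all genes were, with a median of -1.01. Of the 12, 7 had non-overlapping groups, against 7.28% of all genes, but 0 of 12 were called. Msmo1, a sterol methyl oxidase, averaged 41.7 ± 7.81 TPM in UV2 anti-PD-1 tumors and 92.3 ± 11.6 TPM in UV2 isotype tumors (difference -1.13, SE 0.20, adjusted p = 0.232 by limma, the smallest of the 12). Acat2, the thiolase that feeds Hmgcs1, was at -1.35, Hsd17b7 at -1.32, Sc5d at -1.06, Nsdhl at -0.96 and Tm7sf2 at -0.89. Closer to the median of all genes were Dhcr7 at -0.44, Pmvk at -0.36, Lbr at -0.27 and Ebp, a sterol isomerase, at 0.11.

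Against parental anti-PD-1 tumors, 11 of the same 12 were lower in UV2 anti-PD-1 tumors. By limma 8 of 12 were called lower, where 17.1% of all genes were. Msmo1 averaged 41.7 ± 7.81 TPM in UV2 anti-PD-1 tumors and 145 ± 5.12 TPM in parental anti-PD-1 tumors (difference -1.78, SE 0.20, limma adjusted p = 0.00213). Hsd17b7 fell by 2.41 and Sc5d by 1.71, while Ebp was at 0.31 (adjusted p = 0.0853). In the 3 parental comparisons 0 of 12 were called. The branch that leaves Fdps for other isoprenoids lay nearer to the median of all genes. Its 8 members, among them the geranylgeranyl synthase Ggps1 (-0.37) and the dolichol enzyme Dhdds (-0.28), had a median of -0.29 in UV2 tumors. Of these, 7 of 8 were lower on TPM, where 62.3% of all genes were, and 6 of 8 under either other scaling. Only 1 of 8 was non-overlapping, against 7.28% of all genes, and 0 were called. Set against parental anti-PD-1 tumors, 2 of 8 were called lower in UV2 anti-PD-1 tumors by limma, where 17.1% of all genes were. These were Ggps1 (-0.96, limma adjusted p = 0.0395) and Nus1 (-0.48, adjusted p = 0.0263), a partner of Dhdds.

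The genes that sense sterols and take up lipoproteins lay on the same side. All 10 genes of this list were lower in UV2 anti-PD-1 than in UV2 isotype tumors on TPM, where 62.3% of all genes were. Their median was -0.91 with 0 called, and the SREBP escort Scap (-0.02) changed sign under either other scaling. Srebf2, which encodes SREBP-2, averaged 34.2 ± 10.2 TPM in UV2 anti-PD-1 tumors and 72.2 ± 21.3 TPM in UV2 isotype tumors (-1.05, SE 0.29, limma adjusted p = 0.542). Insig1, itself a classical SREBP target, averaged 24.9 ± 4.31 and 67.4 ± 18.3 TPM in the same groups (-1.38, SE 0.32). Relative to parental anti-PD-1 tumors all 10 were lower. By limma 9 of 10 were called lower, all but Scap, where 17.1% of all genes were. Insig2 was at -0.75 (adjusted p = 0.0112), Insig1 at -1.96 (adjusted p = 0.00957) and Srebf2 at -1.57 (adjusted p = 0.0110) by limma.

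Genes of the LXR pathway lay on the other side. In UV2 tumors 8 of 9 were higher under anti-PD-1, where 62.3% of all genes were lower, with a median of 0.94. Of the 9, 3 were non-overlapping, against 5.7% of all genes in that direction, and 0 were called. In parental tumors 9 of 9 were higher under anti-PD-1 than under isotype antibody (median 0.31), where 34.2% of all genes were lower. Triple therapy had 8 of 9 higher against isotype antibody (median 0.68), where 35.8% of all genes were lower. Against parental anti-PD-1 it had 6 of 9 higher (median 0.38), where 43.2% of all genes were lower. In the 3 parental comparisons 0 of 9 were called. Apoe, the lipid carrier, averaged 7790 ± 2364 TPM in UV2 anti-PD-1 tumors and 2817 ± 878 TPM in UV2 isotype tumors (1.47, SE 0.46, limma adjusted p = 0.542). Cyp27a1, which makes an oxysterol, averaged 31.5 ± 2.23 and 12.7 ± 5.02 TPM in the same groups (1.31, SE 0.57). Abcg1, a sterol exporter, was at 1.07 (SE 0.45), Abca1, another exporter, was at 0.94 (SE 0.51) with overlapping groups, and Ch25h, a cholesterol hydroxylase, was at -0.43 (SE 0.72). In the comparison with parental anti-PD-1 tumors, limma found 4 of 9 higher in UV2 anti-PD-1 tumors, Abcg1 (2.14, adjusted p = 0.0137), Cyp27a1 (2.36, adjusted p = 0.0202), Apoe (1.49, adjusted p = 0.0361) and Nr1h3 (1.54, adjusted p = 0.0460), where 9.31% of genes were. Abca1 was at -0.14 there on TPM and changed sign under both other scalings.

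Fatty acid synthesis genes, which are targets of the related factor SREBP-1, were lower in 10 of 10 cases in UV2 tumors under anti-PD-1. Of all genes 62.3% were lower there, and the list had a median of -0.85 and 0 called. Scd2, a desaturase, averaged 128 ± 33.9 TPM in UV2 anti-PD-1 tumors and 339 ± 118 TPM in UV2 isotype tumors (-1.36, SE 0.37, limma adjusted p = 0.542). Fads1, a desaturase of polyunsaturated fatty acids, was at -1.02 with the same adjusted p. Beside parental anti-PD-1 tumors all 10 were lower, and limma called 9 of 10 lower, where 17.1% of all genes were. Scd2 was at -1.97 (limma adjusted p = 0.0111) and Elovl6, an elongase, at -1.80 (adjusted p = 0.0121). Scd1, another desaturase, was at -2.43 (limma adjusted p = 0.0129) and the fatty acid synthase Fasn at -1.88 (adjusted p = 0.0201). The calls of these lists against parental anti-PD-1 tumors depend on single libraries: 38 genes of 7 lists outside the 9 enzymes were called with all libraries, 1 without parental anti-PD-1 replicate 3, 1 without UV2 anti-PD-1 replicate 3, 22 without parental anti-PD-1 replicate 1 and 24 without UV2 anti-PD-1 replicate 2.

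**Figure D4:**
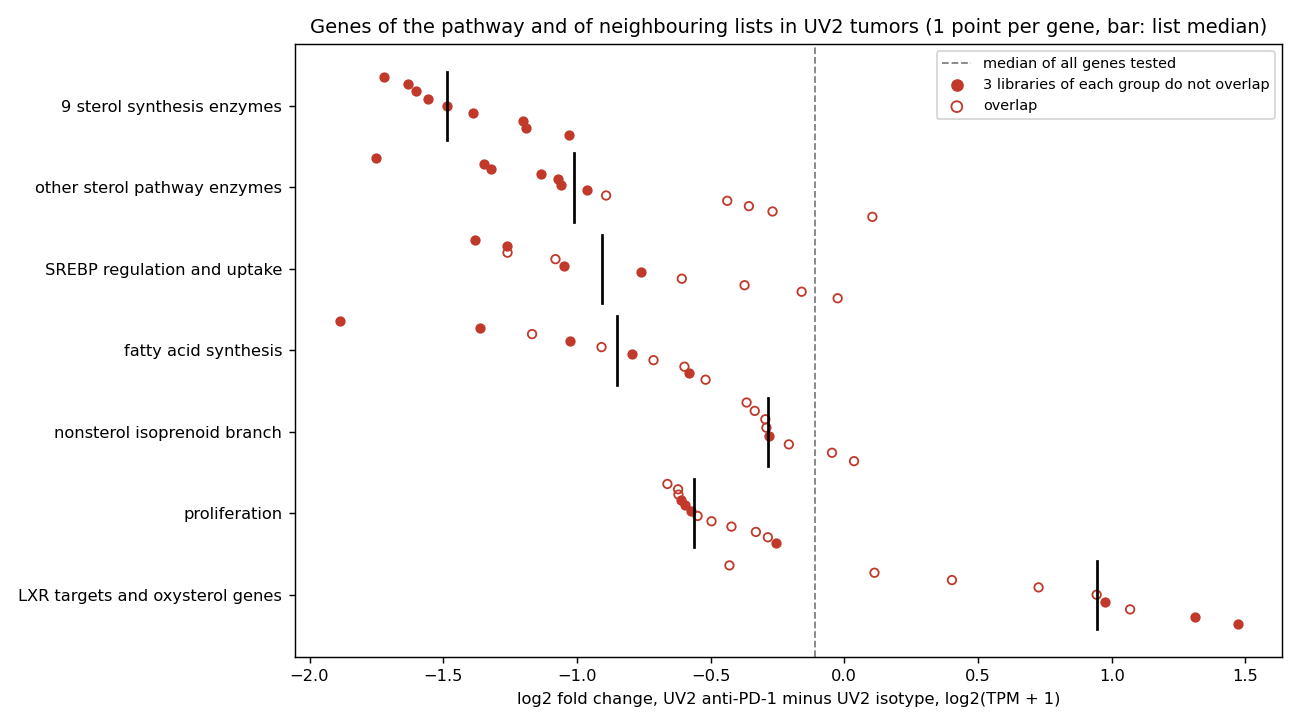
Difference between UV2 anti-PD-1 and UV2 isotype tumors on the log2(TPM + 1) scale (horizontal axis), 1 point per gene, by gene list; filled points are genes whose 3 libraries per group do not overlap, the bar is the list median and the dashed line the median of all genes, -0.11. The 9 chosen enzymes lie at -1.72 to -1.03, the other sterol enzymes have a median of -1.01, and the LXR list has a median of 0.94.

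Macrophage and T cell markers ran opposite to the enzymes across the 15 libraries. Summed TPM of 8 macrophage and monocyte markers, none of them at 0 throughout a group, was 11594 to 14524 in UV2 anti-PD-1 tumors, 6589 to 9672 in UV2 isotype tumors, 5782 to 9226 under parental triple therapy, 3572 to 5922 under parental anti-PD-1 and 3731 to 5960 under parental isotype antibody. UV2 anti-PD-1 tumors were above all other groups in this sum, and 7 of 8 markers were higher in them than in UV2 isotype tumors. Only 1 of the 8, Lyz2, was non-overlapping between these 2 groups, against 5.7% of all genes with UV2 anti-PD-1 higher, and 0 were called. Across libraries, the macrophage sum and the enzymes' mean level had a correlation of -0.87 over 15 libraries and -0.68 over the 9 parental ones. Summed TPM of 7 T cell markers was 353 to 486 in UV2 anti-PD-1 tumors, 67.1 to 310 in UV2 isotype tumors, 48.2 to 61.3 under parental triple therapy, 34.4 to 104 under parental anti-PD-1 and 38.9 to 135 under parental isotype antibody. The T cell sum had a correlation with the enzymes of -0.81 over 15 libraries and -0.19 over the parental ones. Against parental anti-PD-1 tumors, all 8 macrophage and all 7 T cell markers were higher in UV2 anti-PD-1 tumors. By limma 6 of 8 and 6 of 7 were called higher, where 9.31% of all genes were. Among them by limma were the complement gene C1qb (1.80, adjusted p = 0.00996) and the surface receptor Cd2 (2.37, adjusted p = 0.0124). These calls depend on single libraries. In the whole table, 3 genes were called higher without parental anti-PD-1 replicate 3 and 2 without UV2 anti-PD-1 replicate 3. Summed TPM of 6 adipocyte markers was 132 to 770 in UV2 anti-PD-1 tumors and 28.7 to 126 in UV2 isotype tumors, without overlap. Their part in the enzymes' levels was not tested.

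Cell division genes moved in the same direction as the enzymes. Summed TPM of 12 of them was 867 to 988 in UV2 anti-PD-1 tumors and 1087 to 1336 in UV2 isotype tumors, without overlap, while parental libraries ranged from 784 (triple therapy replicate 1) to 1525. All 12 were lower in UV2 anti-PD-1 than in UV2 isotype tumors, where 62.3% of all genes were, with a median of -0.56 and 0 called. The replication factors Mcm5 and Mcm2 were at -0.60 and -0.62 (limma adjusted p = 0.542 for both). Against parental anti-PD-1 tumors all 12 were lower. By limma 5 of 12 were called lower, where 17.1% of all genes were, with Ccnb1, a cyclin of mitosis, at -1.29 (adjusted p = 0.0267). The correlation of this sum with the enzymes was 0.67 over 15 libraries and 0.29 over the parental ones.

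**Figure D5:**
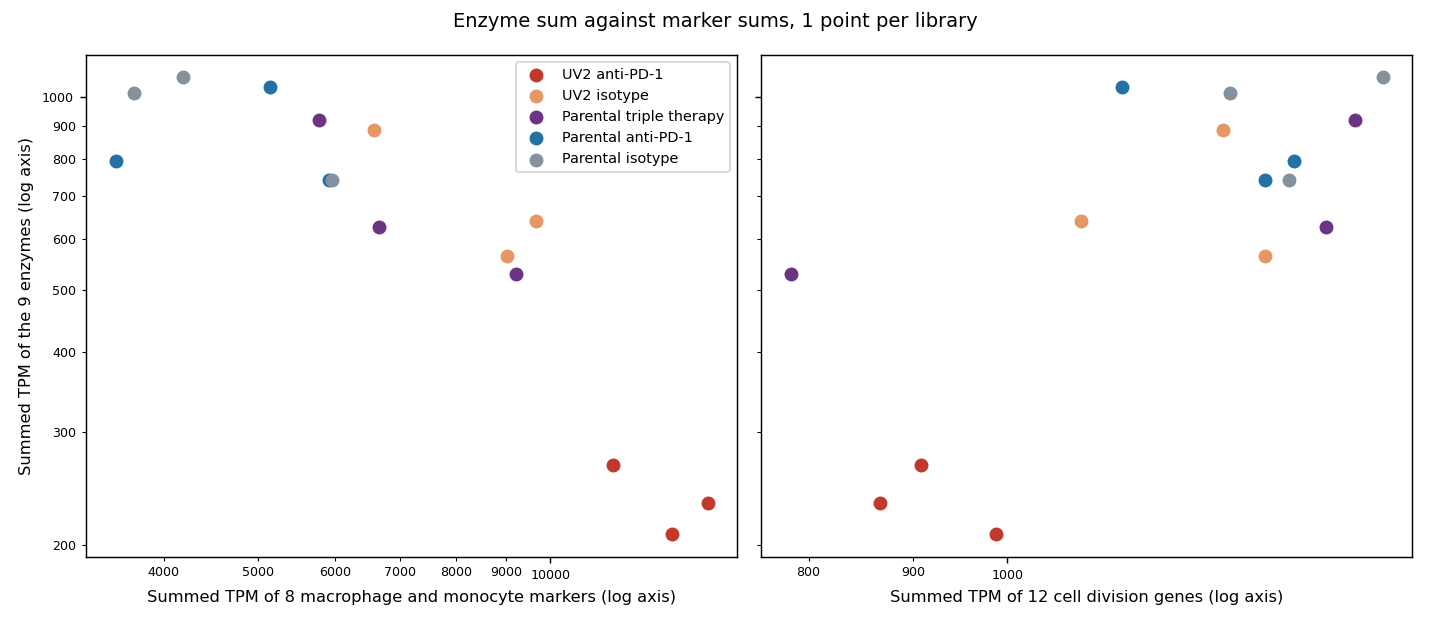
Summed TPM of the 9 enzymes (vertical log axis) against summed TPM of 8 macrophage and monocyte markers (left) and of 12 cell division genes (right), both on log axes, 1 point per library. The 3 UV2 anti-PD-1 libraries lie at 208 to 266 TPM of the enzymes and 11594 to 14524 TPM of macrophage markers, apart from the other 12 points.

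Within the parental line, the 4 libraries with the lowest enzyme sums had the 4 highest sums of muscle markers and the 4 highest sums of adipocyte markers. Parental isotype replicate 3 had an enzyme sum of 740 TPM, and its sums of 6 skeletal muscle and 6 adipocyte markers were 651 and 806 TPM, against enzyme sums of 1071 and 1014 TPM in replicates 1 and 2, whose muscle sums were 13.95 and 14.0 TPM. Parental anti-PD-1 replicate 1 had an enzyme sum of 742 TPM and an adipocyte sum of 1321 TPM, against 11.3 and 17.0 TPM of adipocyte markers in the other parental anti-PD-1 libraries, whose enzyme sums were 1036 and 793 TPM. Over the 9 parental libraries the enzymes had correlations of -0.80 with muscle, -0.79 with neutrophil and -0.74 with adipocyte markers, and over all 15 libraries of -0.15, -0.29 and -0.51. In UV2 anti-PD-1 tumors the muscle sum was 3.26, 827 and 653 TPM, and the enzyme sum was 208, 266 and 232 TPM in the same libraries, lowest where muscle was lowest. What these tissues contributed to the enzymes' levels was not tested.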

How the data were processed

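Bulk RNA of 15 melanoma grafts was measured. The authors deposited TPM values for 23420 gene rows, and, per the submitters' processing notes, used Bowtie2 and RSEM with the builds mm10 and GRCm38; versions are not given in the sources used here. All 15 columns were used, with 0 columns of other samples. TPM keeps no read depth, so no counting interval is given. From the TPM, log2(TPM + 1) was computed for the 13592 genes with at least 1 TPM in at least 3 libraries; the pseudocount understates changes of low genes. All 15 libraries entered a single linear fit with 1 mean per group, by limma 3.58.1 in R 4.3.3 (eBayes with trend and robust, 10 residual degrees of freedom), two-sided, with Benjamini-Hochberg adjustment over all genes and a threshold of 0.05. The code was tested on simulated data. The 9 enzymes and all gene lists were chosen with earlier results of these data known.

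Named were the 9 enzymes, the other sterol enzymes, from each further list up to 4 called genes or its 2 with the smallest p, the genes Insig1, Srebf2, Abca1 and Ch25h, and the 10 genes most like and 5 least like the enzymes; further list members are named as examples, and a few genes under this rule are not reported here. Older symbols (Sc4mol for Msmo1, for example) were matched. Promoters came from RefSeq (GRCm38.p6). The replicate numbers were not used to pair libraries: 30 same-numbered pairs had correlations of residuals from -0.54 to 0.47, with 10 above 0.1. Differently numbered pairs were not computed, so these values cannot decide whether the numbers pair libraries. Alternatives were a pseudocount of 0.1, no filter, a 5 TPM filter, 2 other scalings, the compared groups alone, a replicate block, library weights and leaving out each library.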

Additional observations from a re-analysis of the deposited data

How the results depend on the processing

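The median difference of the 9 enzymes kept its sign in UV2 anti-PD-1 against UV2 isotype under all 14 alternatives (-1.63 to -1.30), and all 126 values of single enzymes there were negative. Because that comparison chose the enzymes, these signs and the calls there are a description and lend no support. The calls in that comparison did not hold as well: Idi1 and Sqle were called with TPM as deposited, Cyp51 joined them with a pseudocount of 0.1, a 5 TPM filter or the replicate block, Sqle alone remained with median-of-ratios scaling, and 0 remained with quantile normalization or the compared groups alone. Library weights, whose estimation stopped before convergence, raised nearly every count. With them, members called in the 3 parental comparisons (anti-PD-1 against isotype, triple therapy against isotype, triple therapy against anti-PD-1) were 1, 9 and 6 in place of 0, and the other pathway genes called were 7, 51 and 24 in place of 0, 38 in UV2 anti-PD-1 against UV2 isotype in place of 0, and 26 in UV2 isotype against parental isotype in place of 0; the median for triple therapy against isotype was -0.76 with weights, in place of -0.36. In UV2 isotype against parental isotype, 1 other pathway gene was called with a pseudocount of 0.1, with a 5 TPM filter and with the compared groups alone, and 0 to 4 when a library was left out. In UV2 anti-PD-1 against parental anti-PD-1, the median was -1.61 with median-of-ratios scaling in place of -1.89, which moved the median of all genes from -0.21 to 0.03, and the 38 other pathway genes called became 1 to 36 when a library was left out. The cause of these shifts was not tested. Leaving out a library gave medians of -0.28 to 0.03 for parental anti-PD-1 against isotype, -0.55 to -0.24 for triple therapy against isotype and -0.45 to -0.15 for triple therapy against anti-PD-1. The replicate block left 0 of 9 enzymes called in each parental comparison, and it gave 30 other pathway genes in UV2 anti-PD-1 against parental anti-PD-1. Whether the numbers pair libraries is unknown, so the block is not read as a pairing. Over the whole table, the genes called in UV2 isotype against parental isotype were 176 as reported, 82 with no filter, 37 with the replicate block, 21 with the compared groups alone, 3704 with library weights and 3 to 458 when a library was left out. In UV2 anti-PD-1 against parental anti-PD-1 they were 3586 as reported, 9262 with library weights and 9 to 4074 when a library was left out. With library weights the other comparisons had 2911 (UV2 anti-PD-1 against UV2 isotype), 412 (parental anti-PD-1 against isotype), 7576 (triple therapy against isotype) and 4527 (triple therapy against anti-PD-1) calls. TPM keep no read depth, so how depth limits these values is unknown.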

Other observations

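Interferon gamma response genes lay mostly higher in UV2 than in parental tumors under either antibody. Their 12 genes had a median of 0.36 in UV2 anti-PD-1 against UV2 isotype tumors, with 9 of 12 positive on TPM, 0 called and Cd274, the ligand of PD-1, at 0.57 (limma adjusted p = 0.6004), and of 1.29 in UV2 isotype against parental isotype tumors, with 10 of 12 non-overlapping, against 10.4% of all genes in that direction, and 0 called. Across libraries the summed level of this list had a correlation with the 9 sterol enzymes of -0.50 over 15 libraries and 0.07 over the 9 parental ones. Against parental anti-PD-1 tumors, 11 of 12 were positive in UV2 anti-PD-1 tumors, with a median of 0.93. Of the 12, 2 were non-overlapping with UV2 higher, which was true of 2292 of all 13592 genes. Irf1, an interferon-induced transcription factor, was the 1 of 12 called higher (1.08, limma adjusted p = 0.0218), where 9.31% of all genes were.

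Other tissue markers were also recorded beside the enzymes. Sebaceous gland cells make much sterol, and summed TPM of 7 of their markers was 0.78, 0.84 and 14.15 in UV2 anti-PD-1 libraries, 0.96 to 1.14 in UV2 isotype libraries, 1.34 to 37.1 under parental triple therapy, 0.41 to 1.17 under parental anti-PD-1 and 0.83 to 1.58 under parental isotype antibody. The highest values, 37.1 in triple therapy replicate 1 and 14.15 in UV2 anti-PD-1 replicate 3, stood in the libraries with the highest keratinocyte sum of their group. Fibroblast markers had a correlation with the enzymes of -0.14 over 15 libraries and -0.67 over the parental ones, endothelial markers of -0.23 and -0.74, keratinocyte markers of -0.16 and -0.62, sebaceous markers of -0.26 and -0.44 and melanocyte markers of -0.16 and -0.38.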
